A study of Mus musculus with 2 samples.

Results

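The miR-26 family was represented by mature miR-26a (mmu-miR-26a in the files), measured by 1 probe out of 376 probes for 373 mouse miRNAs. The probe was chosen by its name, which had to be miR-26a or miR-26b on either arm of the hairpin. The other member, mmu-miR-26b, and the passenger arms (the less abundant strands of the hairpins) were not analysed here. A probe whose name marks it as a mismatch to miR-26a was set apart as a control of the hybridisation and is described beside the member. The cells were of G2N2C, a line of mouse basal cell carcinoma (BCC), so the measurements describe 1 tumour line in culture. One pool of RNA came from cells transfected with Stealth-D3 oligos, directed at the type 3 deiodinase (D3, an enzyme that inactivates thyroid hormone, encoded by Dio3), and the other from cells transfected with the Stealth-ctr control. Both kinds of cells grew in low calcium with keratinocyte growth factor and 8% chelated serum and were collected 48 h after transfection. RNA of 3 experiments was pooled per condition, and the same pair of pools was hybridised to 2 two-colour arrays with the dyes exchanged.

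miR-26 miRNAs are small RNAs that pair through their seed, the bases near the 5′ end, with messenger RNAs and lower their output. They are cut from hairpins inside introns of the Ctdsp genes, whose products are small phosphatases that act on the tail of RNA polymerase II and on the retinoblastoma protein. In mouse and human tumours miR-26a is known as a repressor of growth, with Ezh2 and cyclins of the G1 phase among its targets, and Myc is known to repress it.

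The mature sequences are shown because the seed defines the family. They are RefSeq sequences on GRCm38.p6, read 5′ to 3′, with the seed (bases 2 to 8) in capitals.
mmu-miR-26a-5p: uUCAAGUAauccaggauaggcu
mmu-miR-26b-5p: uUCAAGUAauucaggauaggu
Of 1679 mouse mature miRNA names in the RefSeq table, only these 2 carried the seed UCAAGUA. Compared without gaps from base 1 at the 5′ end, they were identical at 19 of 21 positions and differed by U11C and U21C, where the first letter belongs to miR-26b-5p and the last to miR-26a-5p; miR-26a-5p is 22 bases long and miR-26b-5p is 21. Neither difference lies in the seed. Whether RNA of miR-26b adds to the signal of the miR-26a probe was not tested.

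The same mature miR-26a-5p lies in 2 hairpins, so its probe cannot tell their products apart. The hairpins are shown with the mature arm in capitals.
Mir26a-1: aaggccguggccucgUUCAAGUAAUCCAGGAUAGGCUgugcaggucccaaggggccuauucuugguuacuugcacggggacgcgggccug
Mir26a-2: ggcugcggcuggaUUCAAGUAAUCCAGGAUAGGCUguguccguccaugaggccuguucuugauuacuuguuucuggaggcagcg
Mir26a-1 lies at chr9:119031796-119031885 on the plus strand (GRCm38.p6), within the span of Ctdspl at chr9:118926536-119044119. Mir26a-2 lies at chr10:126995530-126995613 on the plus strand, within the span of Ctdsp2 at chr10:126978717-126999975. Mir26b lies at chr1:74394310-74394394 on the plus strand, within Ctdsp1 at chr1:74391609-74397285. Outside the mature 5′ arm the hairpins differ, and their 3′ arms, which give the passenger strands, were identical at 16 of 22 positions between Mir26a-1 and Mir26a-2.

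The comparison asked whether miR-26a differed between cells with interfered D3 and control cells. The deposited values were read as log2 ratios of the 2 dyes in one dye order on both arrays, and the sign of the first array was turned so that both compare the pools the same way. This reading comes from the values: across 1677 probes the mean of the arrays correlated with the authors' deposited fold change with r = 0.83 after the turn and r = -0.11 without it. Across the 373 miRNAs, which are not independent, the turned arrays themselves correlated with r = -0.08 as deposited and r = 0.44 once the trend described below was subtracted. miR-26a then had a log2 ratio of 0.60 on the first array and of 1.60 on the second array, 1.51-fold and 3.03-fold between the pools. Both arrays lay on the side of miR-21, which is known to promote the growth of many tumours and had 3.08 and 4.12. The mean log2 ratio of miR-26a was 1.10 ± 0.71 (technical SD, 2 arrays), a 2.14-fold difference. The arrays shared one pair of pools and count as 1 replicate, so there was no test between conditions and the SD holds no biological spread; with 2 arrays the precision is low. Per the labels each pool's dye is known, while the dye in the numerator is not given in the sources used here. If it is red, miR-26a was higher in the D3-interfered pool; if it is green, it was higher in the control pool. Fewer cells with miR-26a and less miR-26a per cell cannot be told apart in such pools.

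Ordered by mean log2 ratio from the side of miR-21, miR-26a was number 12 of the 373 mouse miRNAs, with ranks of 32 and 26 on the single arrays. Its neighbours in this order were miR-685 with 1.19 ± 0.25 and miR-99b with 1.09 ± 0.52, and the gap to both was smaller than the technical SD of miR-26a. The median of all 373 was 0.08, and the quartiles were -0.12 and 0.28, so the mean of miR-26a lay outside the middle of the distribution. A rule of size asked for one sign on both arrays and a mean of at least 1.5-fold (0.585 on the log2 scale), and miR-26a passed it on the side of miR-21. Over all mouse miRNAs 8.85% passed on that side (33 of 373) and 3.22% opposite (12 of 373). On single arrays, without the demand on signs, 33 and 52 of the 373 reached this size on the first array, toward miR-21 and opposite, and 87 and 17 did so on the second. Since miR-26a was chosen with its ratio known, its place against these shares is a description.

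**Figure D1:**
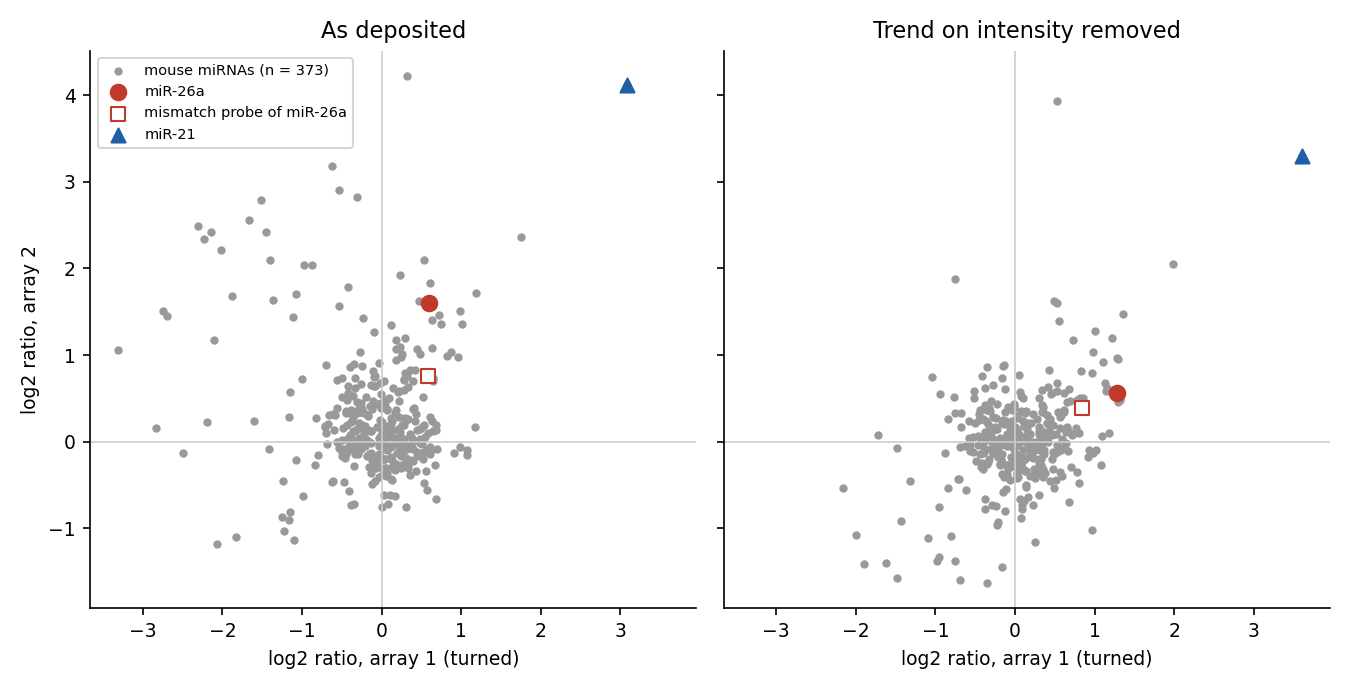
Turned log2 ratio of each mouse miRNA on the first array (x axis) and the second (y axis), as deposited (left) and with the trend on intensity removed (right); grey points are the 373 miRNAs, miR-26a itself among them. miR-26a (red circle) lies at 0.60 and 1.60 on the left and at 1.28 and 0.56 on the right, above 0 on both axes in each panel; its mismatch probe (open square) and miR-21 (triangle) lie in the same quadrant.

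The deposited ratios depended on brightness, and the probe of miR-26a was among the brighter ones. Its average log2 intensity in the authors' deposited table was 10.2, against a median of 7.16 over the 373 miRNAs. Brightness depends on the probe and is no measure of how abundant miR-26a was against other miRNAs. At this intensity a smooth trend through all 1677 probes with a fold change stood at -0.68 on the turned first array and at 1.04 on the other. miR-26a lay above the trend on both arrays. With the trend subtracted its ratio was 1.28 on array 1 and 0.56 on array 2, so the array with the larger value was exchanged, and array 2 by itself fell short of 1.5-fold. The mean became 0.92 ± 0.51 (technical SD, 2 arrays), or 1.89-fold, and its rank 15 of 373, with 8 on array 1 and 41 on array 2. It passed the rule of size again, as did 8.04% of the miRNAs on the side of miR-21 and 5.36% opposite with the trend subtracted. The difference between the arrays, divided by the number of arrays, is the part of the ratio that goes with dye, array and slide. These cannot be told apart here. This part was 0.50 as deposited and -0.36 with the trend subtracted. It is smaller in size than the mean whenever both arrays have the same sign, so its size against the mean adds nothing.

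**Figure D2:**
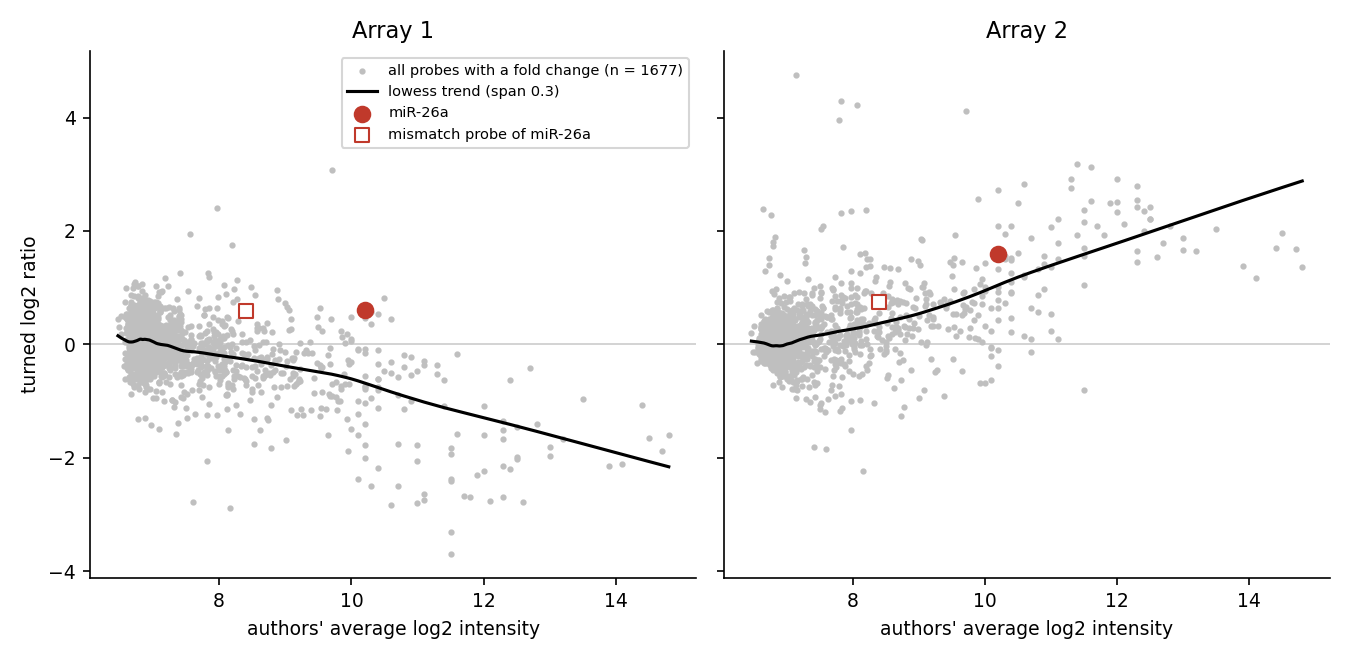
Turned log2 ratio (y axis) against the authors' average log2 intensity (x axis) on each array, for the 1677 probes with a fold change (grey), with the lowess trend (black line). The trend runs below 0 on the first array and above 0 on the second for bright probes, and miR-26a (red circle) lies above it on both, as does its mismatch probe (open square).

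Mouse miRNAs of like brightness show what the arrays gave at this intensity; the window was chosen after the values were seen. Besides miR-26a, 22 miRNAs lay within 0.5 of its average log2 intensity. On the first array their log2 ratios ran from -2.83 (miR-801) to 3.08 (miR-21) with a median of -0.20. There 14 of the 22 were below 0, and only miR-21 was higher than miR-26a. On the second array they ran from -0.63 (miR-200b) to 4.12 (miR-21) with a median of 0.85, and miR-21, miR-22, miR-222 and miR-30a were higher than miR-26a. Over both arrays miR-21, miR-22 and miR-30a had a higher mean, and the same 3 were higher with the trend subtracted and in the authors' deposited table. Of the 22, 10 had the same sign on both arrays as deposited, which miR-26a had too; with the trend subtracted 18 did.

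The authors' deposited table gives miR-26a a log2 fold change of 0.588, or 1.5-fold, on the side of miR-21. This lies just inside the 1.5-fold threshold of 0.585 and is number 14 of the 373 in that table. There 3.75% of the miRNAs reached 1.5-fold on the side of miR-21 and 5.63% opposite. The next miRNAs in that order were miR-100 with 0.597 just above miR-26a, and miR-30d with 0.572 just below it and short of the threshold. The deposited fold change of miR-26a was 0.51 smaller than its mean over the arrays on the log2 scale. Among the 8 ways of obtaining the value that are plotted here, the authors' gave the lowest.

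**Figure D3:**
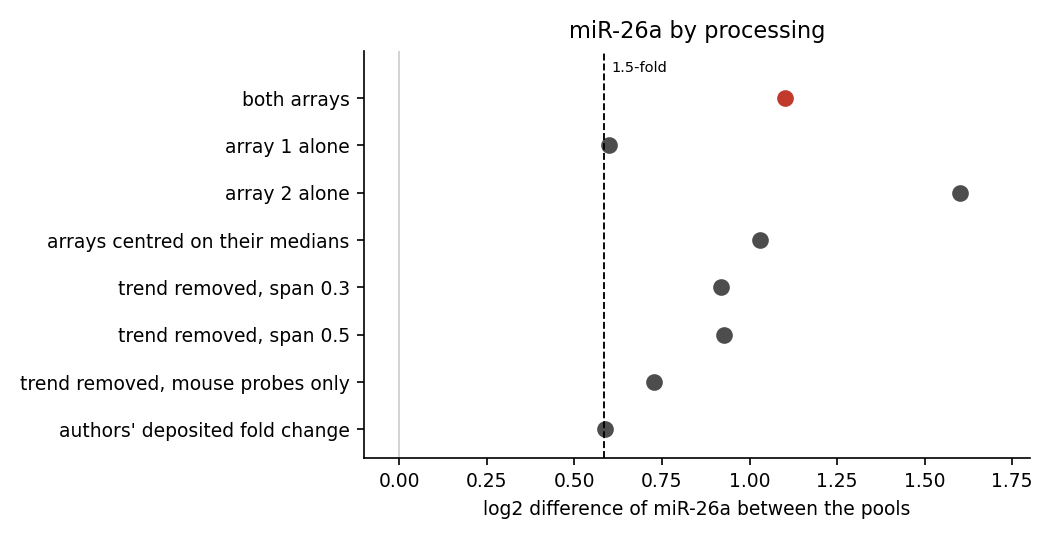
log2 difference of miR-26a between the pools (x axis) by processing (y axis); the dashed line is 1.5-fold and 0 is marked in grey. All 8 values lie at or beyond 1.5-fold on the side of miR-21, with array 1 alone at 0.60 and the authors' deposited fold change at 0.588 nearest to the line and array 2 alone at 1.60 farthest.

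The mismatch probe of miR-26a gave a second reading of the same hybridisation. A mismatch probe differs from the matched one so that its target binds less firmly, and it shares its target with that probe, so it is no independent sample. Its log2 ratios were 0.58 (first array) and 0.75 (second array), both on the side of miR-21, and a mean of 0.67 ± 0.12 (technical SD, 2 arrays), or 1.59-fold. Its average log2 intensity was 8.4, where the trend was weaker, at -0.26 and 0.37. With the trend subtracted it had 0.84 and 0.39, a mean of 0.61 ± 0.32. In each of these pairs the matched probe was further from 0, although on the first array as deposited the values of 0.60 and 0.58 nearly coincided. The authors' deposited table gives the mismatch probe a log2 fold change of 0.343, or 1.27-fold, short of 1.5-fold.

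The miRNAs most like miR-26a were those with the smallest distance between their pairs of array values and its own, with the trend subtracted. Likeness rests on 2 arrays of 1 pair of pools and is a description. Nearest was miR-221, at a distance of 0.09, with 1.32 and 0.48 on the arrays. miR-31*, the passenger arm of the miR-31 hairpin, followed at 0.10 with 1.29 and 0.46. miR-222, which is made from one cluster with miR-221 and shares its seed, was at 0.13 with 1.15 and 0.58. Then came miR-30d at 0.14 with 1.16 and 0.62, and miR-212 at 0.19 with 1.13 and 0.67. As deposited, miR-31* with 0.57 and 1.55 and miR-222 with 0.47 and 1.63 were again the nearest of all, and miR-212 was number 4. miR-221, whose deposited pair was 0.96 and 0.97, was number 24 and miR-30d number 19, so their likeness to miR-26a depended on subtracting the trend.

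Of 19 other miRNAs known to be repressed by Myc, all measured, 3 passed the rule of size on the side of miR-21, 1 passed opposite and 15 did not pass, beside 8.85% and 3.22% of all 373 on these sides. Their median log2 ratio was 0.14, beside 0.08 over all 373 miRNAs. Those on the side of miR-21 all belonged to the miR-30 family: miR-30c had 1.08 ± 1.20, miR-30e 0.75 ± 0.38 and miR-30b 0.74 ± 0.86 (technical SD, 2 arrays). With the trend subtracted miR-30c passed with 0.95, while miR-30e and miR-30b, both with 0.58, fell just short. In the authors' deposited table none of these 3 reaches 1.5-fold, with log2 fold changes of 0.406 for miR-30c, 0.321 for miR-30e and 0.232 for miR-30b. There 2 other members of the list reached it on the side of miR-21, miR-22 with 0.932 and miR-23b with 0.698. Opposite, 1 did, and the shares over all 373 were 3.75% and 5.63%. By the mean over both arrays, the member past the rule on the opposite side was miR-34a, with -0.85 ± 0.56, the lowest of the list. It is a direct target of p53 that represses cell cycle genes. The highest was miR-22, a miRNA with a known part in cell senescence; its mean of 1.26 came from ratios of -0.31 and 2.82 on the arrays, so it did not pass, while with the trend subtracted it had 0.53 and 1.60 and did. It was the single listed miRNA with a higher mean than miR-26a as deposited, where miR-26a was number 12 of all 373. Of the 19, 7 had the same sign on both arrays, and their average log2 intensities ran from 6.84 to 12.3. The share over all 373 was not counted, so this count has no background beside it. The list's median was -0.35 on array 1 and 0.74 on array 2, beside 0.01 and 0.14 over all 373. On the first array alone none reached 1.5-fold on the side of miR-21 and 6 did opposite; on the second alone these counts were 10 and 1. Over all 373 miRNAs they were 33 and 52 on the first array and 87 and 17 on the second, as given above.

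Among 4 measured miRNAs that share Ezh2, the histone methyltransferase of Polycomb, as a known target with miR-26a, 2 passed toward miR-21 and none opposite, beside 8.85% and 3.22% of all 373. miR-138, also known from keratinocyte senescence, had 1.19 and 1.71 on the arrays, a mean of 1.45 ± 0.37. miR-101a, the classical repressor of Ezh2, had 0.65 and 0.70, a mean of 0.68 ± 0.04, and an average log2 intensity of 7.24. miR-124, a miRNA of neurons, had -0.10 ± 0.32 and miR-214 0.11 ± 0.76, with opposite signs on the arrays in both cases. The median of the 4 was 0.39 as deposited and 0.36 with the trend subtracted, beside 0.08 and 0.02 over all miRNAs. In the authors' deposited table miR-138 alone reached 1.5-fold, with a log2 fold change of 0.829 against 0.404 for miR-101a.

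Of 14 measured miRNAs that target G1 cyclins and Cdks, as miR-26a does, 1 passed on the side of miR-21, 3 opposite and 10 did not pass, beside 8.85% and 3.22% of all 373. Their median log2 ratio was -0.02, beside 0.08 over all miRNAs. The 3 opposite were the p53 targets miR-34c with -1.11 ± 0.03, miR-34b-5p with -1.06 ± 0.27 and miR-34a, given above. miR-15b, of the family that represses cyclins D and E, was the highest of the list with 0.62 ± 0.63, from 0.18 and 1.07 on the arrays; with the trend subtracted it had 0.46 and did not pass. None of the 14 had a mean as high as that of miR-26a, which was number 12 of all 373. On the first array alone none reached 1.5-fold on the side of miR-21 and 6 did opposite, beside 33 and 52 of all 373. On the second alone 3 and 4 did, beside 87 and 17 of all 373. With the trend subtracted none of the list passed toward miR-21 and 4 passed opposite, beside 8.04% and 5.36% of all 373. Those 4 were the 3 miR-34 miRNAs and miR-503, which had -0.59.

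**Figure D4:**
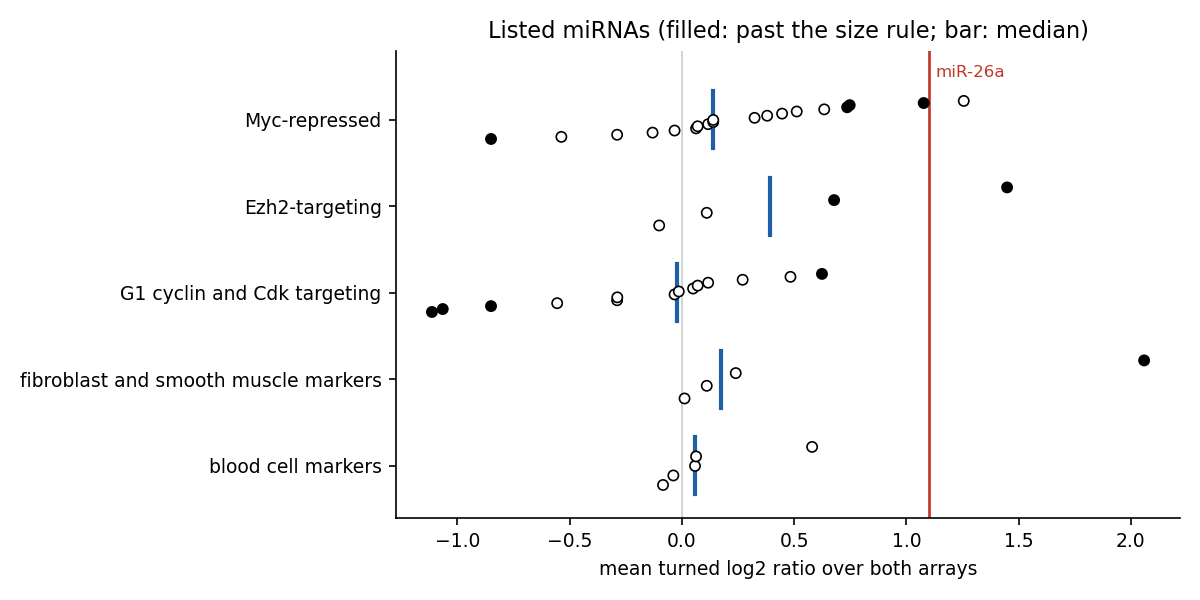
Mean turned log2 ratio over both arrays (x axis) of the measured members of each list (y axis); filled points passed the rule of size, the blue bar is the list's median and the red line is miR-26a at 1.10. The listed miRNAs to the right of miR-26a are miR-22, miR-138 and the fibroblast marker miR-143. By this mean miR-26a was number 12 of all 373 mouse miRNAs.

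Both pools came from the same cultured tumour line, so the markers of other cell types are described as values and not as shares of cells. Of 4 measured fibroblast and smooth muscle markers, miR-143 passed toward miR-21 (2.06 ± 0.43), beside 8.85% of all 373 miRNAs. The other 3 did not pass, from miR-199a-5p with 0.01 to miR-145 with 0.24. The median of the 4 was 0.18, beside 0.08 over all 373. By the second array alone 2 of the 4 were at least 1.5-fold toward miR-21, beside 87 of all 373. Of 5 measured blood cell markers none passed, beside 8.85% of all 373 toward miR-21 and 3.22% opposite. With shares this low and only 5 markers, that count gives no information on cell types. Among the blood markers miR-142-3p was lowest with -0.08, miR-223 highest with 0.58, and the median was 0.06. The signs of all 5 blood markers differed between the arrays, and none of their probes was brighter than 7.52. Whether the culture held any cells of other types was not tested. Of the miRNAs known from keratinocytes, looked up after the values were seen, both miR-205 and miR-203 had a fold change in the authors' deposited table; their brightness gives no level, so the cell type was not checked further. How far D3 itself was lowered was not analysed here.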

How the data were processed

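Total RNA was labelled with Cy3 or Cy5 using a kit for locked nucleic acid miRNA arrays, per the labels' protocols. The authors deposited 1 log2 dye ratio per array for 2244 features, and a table of 2101 probes whose columns are, per the file headers, the log2 fold change, average expression (a log2 intensity), the p-value before adjustment and the fold change with its sign. The p-values that the authors deposited were not used, since their replicates are not stated. The sources used here do not give the background correction, the normalization, the log base or the dye in the numerator of the ratios. The column medians were 0.04 on both arrays. A log2 scale was taken because the deposited fold change followed the mean turned ratio (r = 0.83, 1677 probes). The slope was 0.78 over 155 probes of average intensity between 9 and 12, where natural logs would give 1.44. Since the authors' processing is not given, this slope does not fix the base, and log2 remains an assumption.

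Used were mouse probes with a fold change. Left out were 1586 probes for near homologues, the mismatch probes, and the 46 probes for mouse miRNAs whose fold change is missing. Probes of 1 miRNA were averaged (3 miRNAs). The trend was a lowess fit (span 0.3) of each array's ratio on average intensity. The member and the 5 lists were chosen with earlier results of these data known. Named are miR-26a, miR-21, its 5 nearest miRNAs, and each list's members past the rule with its highest and lowest; others are described as values beside these. Alternatives were single arrays, median centring, other trend fits, the authors' fold change, other thresholds and brighter miRNAs. Computations ran in Python 3.11.15 (pandas 2.3.3, NumPy 2.4.6, statsmodels 0.14.6 for lowess, matplotlib 3.10.9).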

Additional observations from a re-analysis of the deposited data

How the results depend on the processing

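miR-26a kept its side and passed 1.5-fold in every alternative that gave it a value: 0.60 and 1.60 on the single arrays, 1.03 with each array centred on its median, 0.92 and 0.93 with the trend removed at spans of 0.3 and 0.5, 0.73 with the trend fitted on mouse probes only, and 0.588 in the authors' deposited table. Single arrays with the trend removed were not among these alternatives. Array 2 by itself then had 0.56, short of 1.5-fold. The mean as deposited also passed at 2-fold, which the means with the trend removed, array 1 alone and the authors' value did not reach. Counts over all mouse miRNAs moved more. With centred arrays 28 passed on the side of miR-21 and 17 opposite. Toward miR-21, 30 passed with the trend removed at either span and 24 with the trend fitted on mouse probes. On the side of miR-21 the 33 became 59 at the lower threshold tried, 15 at 2-fold and 14 in the authors' deposited table, with 33 to 87 on single arrays. On the opposite side the 12 became 23 at the lower threshold, 7 at 2-fold, 21 in the authors' deposited table, 20 with the trend removed at either span and 27 with the trend fitted on mouse probes, with 17 to 52 on single arrays. Of the Myc-repressed list, 1 passed on the side of miR-21 at 2-fold, 2 in the authors' deposited table and 0 to 10 on single arrays. Opposite, 2 of this list passed at the lower threshold and with centred arrays, and 0 at 2-fold. On that side 3 passed with the trend fitted on mouse probes and 1 to 6 on single arrays. Of the Ezh2 list, 1 passed at 2-fold and in the authors' deposited table, and 2 to 3 on single arrays, all toward miR-21. Of the G1 cyclin and Cdk list, 0 passed on the side of miR-21 at 2-fold, in the authors' deposited table, with centred arrays and with the trend removed in each of its fits, and 0 to 3 on single arrays; opposite, 5 passed with the trend fitted on mouse probes and 4 to 6 on single arrays. Of the fibroblast markers 1 to 2, and of the blood markers 0 to 1 on each side, passed on single arrays. The cause of these shifts was not tested. Single arrays lack the demand on signs by construction. For the 21 other miRNAs that the naming rule chose, the alternatives that keep both arrays or use the authors' table gave 105 values, of which 19 moved by more than the technical SD. Among the 105 values the sign changed in 5, none of which moved by more than the technical SD. They were of miR-199a-5p, which lay near 0, and of miR-223, which is -0.09 in the authors' deposited table. The single arrays differed in sign for 5 of the 21, namely miR-22, miR-223, miR-124, miR-142-3p and miR-199a-5p. No paired analysis was possible because there is 1 pair of pools. Dim probes limit the lists: those of the blood markers lay between 6.67 and 7.52, where probes without a fold change reached 6.99. Of the fibroblast markers, miR-145 lay at 6.83 and miR-199a-5p at 7.09.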

Other observations

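Another mismatch probe was looked up, for miR-466d-3p, a miRNA of a large repeated cluster. Its log2 ratios were -0.13 and 0.91 on the arrays as deposited, and 0.10 and 0.60 with the trend removed, at an average log2 intensity of 8.18. Its matched probe was not analysed here. The authors' deposited table gives this mismatch probe a log2 fold change of 0.06.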
